A study of Mus musculus with 24 samples.

Results

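Gene expression in the lumbar spinal cord was compared between mice on day 6 after an agonist antibody to the lymphotoxin beta receptor (LTβR) and mice on day 1. The comparison used 6 of the 24 libraries of the series, 3 from each day, chosen by their labels, and was described across all genes. The mice were male, of the C57 strain and 8 to 12 weeks old. The day-6 mice had received 2 injections of 10 µg of antibody into the hind paw, which their titles place on days 1 and 3. The day-1 mice had received 1 such injection. Day 6 therefore differed from day 1 in time and also in the number of injections. The sample titles of the dorsal root ganglia (DRG) count the 6 days from the first injection, whereas the design text counts 6 days after the pair of injections, and the exact interval is uncertain. No spinal cord of mice given control IgG was among the 24 libraries of the series, so both groups were treated and neither gives a baseline. The labels number the samples without saying that each is a separate animal, and p-values here reflect only the spread between samples, which may be technical.

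LTβR belongs to the tumour necrosis factor receptor family and binds membrane lymphotoxin and LIGHT. It releases the kinase NIK from its degradation by TRAF3, and NIK drives processing of the NF-κB precursor p100 to p52, which acts with RelB. The pathway is best known for organising lymph nodes and for keeping vascular adhesion molecules and chemokines expressed there. The lumbar cord was not injected. It receives the central endings of the sensory neurons that innervate the hind paw, onto excitatory and inhibitory interneurons of the dorsal horn, among astrocytes, microglia, oligodendrocytes and vessels.

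No gene passed the threshold between day 6 and day 1. The genes closest to it were mostly of modest size: the endothelial receptor gene Tek and glial Fabp7 were at higher values on day 6, and Il2rg and the interneuron factor Pax2 were at lower values. Genes of cholesterol synthesis had higher values on day 6 as a group, and genes of the unfolded protein response and glucocorticoid-responsive genes had lower values. Neutrophil, red cell and Schwann cell RNA differed by much larger folds, with wide spread between the day-6 libraries. Across 15096 genes tested by edgeR's quasi-likelihood method, with p-values adjusted by Benjamini-Hochberg, 0 genes (0%) had an adjusted p under 0.05, and the smallest adjusted p was 0.463. At an unadjusted edgeR p under 0.05, 813 genes (5.39%) were higher on day 6 and 651 (4.31%) lower. These shares are the background for the list counts given below. The libraries of the groups did not overlap for 1233 genes that were higher on day 6 (8.17%) and 1240 that were lower (8.21%). The median log2 fold change of day 6 over day 1 was 0.0091 across all tested genes.

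The 6 libraries held 21.7, 24.5 and 15.7 on day 6 and 26.3, 24.4 and 24.4 on day 1, in units of 1e6 reads counted in genes, and 17174 to 17421 genes had a count. CPM are read counts scaled to a common library size, with TMM normalization, which offsets differences in library composition. Defining markers of spinal cord were measured first. Snap25, a synaptic protein of neurons, had 3521, 4542 and 3402 CPM in day-6 libraries 1 to 3, against 4145, 3691 and 4074 CPM in day-1 libraries 1 to 3. Mbp, of myelin, had 16710, 19550 and 16240 CPM on day 6 and 15110, 14610 and 15900 CPM on day 1. Hoxc10, which marks lumbar levels, had 96.8, 118 and 97.8 CPM on day 6 and 108, 105 and 117 CPM on day 1. These markers were present in each of the 6 libraries.

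Tissue around the cord was represented unevenly in the libraries. The 10 tested Schwann cell genes, which mark the myelin of nerve roots, summed to 13300, 1910 and 12100 on day 6 and 1692, 5959 and 3885 on day 1, in CPM. Day-6 libraries 1 and 3 were high, and day-6 library 2 lay close to day-1 library 1. The 27 genes of meningeal and perivascular fibroblasts summed to 2952, 1753 and 2717 on day 6 and 1405, 2372 and 1670 on day 1, in CPM, with the same day-6 libraries highest. Of these 27, 24 had a positive log2 fold change and 1 was higher at an unadjusted p under 0.05, against 5.39% of all tested genes. Pmp2, a fatty acid-binding protein of peripheral myelin, had 116, 7.98 and 47.2 CPM in day-6 libraries 1 to 3, against 5.92, 19.1 and 22.1 CPM in day-1 libraries 1 to 3. Dcn, a fibroblast proteoglycan, had 464, 98.2 and 408 CPM on day 6 and 86.3, 291 and 153 CPM on day 1. For both genes day-6 library 2 lay within the day-1 range. Skeletal muscle genes summed to 118, 462 and 1147 on day 6 and 309.9, 175 and 138 on day 1, in CPM, and were highest in day-6 library 3. The first principal component of log2 CPM, with 52.8% of the variance, placed the libraries at 34.7, -22.3 and 30.1 on day 6 and at -27.4, 2.6 and -17.7 on day 1. On it, day-6 library 2 again lay with the day-1 libraries.

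**Figure D1:**
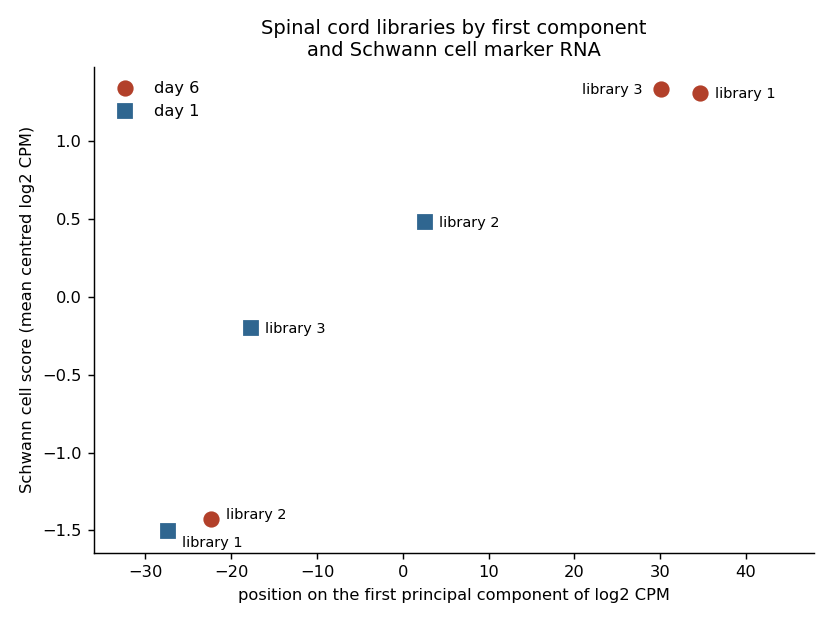
Each point is 1 spinal cord library, with its position on the first principal component of log2 CPM on the horizontal axis and its Schwann cell score, the mean centred log2 CPM of the listed genes, on the vertical axis. Day-6 libraries 1 and 3 sit at scores of 1.31 and 1.34, whereas day-6 library 2, at -1.43, sits beside day-1 library 1, at -1.50.

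Neutrophil and red cell genes had the largest median log2 fold changes of the 52 gene lists. Of 11 tested neutrophil genes, 10 were higher on day 6 at an unadjusted p under 0.05, 10 had groups that did not overlap, and the median log2 fold change was 3.36. The list summed to 682, 98.7 and 163 on day 6 and 24.5, 28.8 and 56.3 on day 1, in CPM. Day-6 library 1 was far above the others, and the lowest day-6 library was above the highest day-1 library. Mpo, the myeloperoxidase made by granulocyte precursors in bone marrow, had 9.33, 1.56 and 2.97 CPM in day-6 libraries 1 to 3, against 0.420, 0.736 and 0.499 CPM in day-1 libraries 1 to 3, a log2 fold change of 3.06 ± 0.74 (SE). S100a9, a calcium-binding protein of neutrophils, had 188, 26.9 and 43.5 CPM in day-6 libraries 1 to 3, against 4.39, 6.01 and 12.6 CPM in day-1 libraries 1 to 3, a log2 fold change of 3.50 ± 1.00. Cxcr2, the neutrophil chemokine receptor, had 5.69, 0.823 and 1.58 CPM on day 6 and 0.191, 0.245 and 0.582 CPM on day 1. In each of these 3 genes day-6 library 1 was the highest of the 6. Prg2, the granule major basic protein of eosinophils, chosen after its values were seen, had 16.9, 4.15 and 4.48 CPM on day 6 and 0.382, 0.245 and 0.789 CPM on day 1. Its log2 fold change was 4.17 ± 0.80, and with DESeq2 its adjusted p was 4.31e-08, whereas edgeR gave it an adjusted p of 0.463.

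Red cell genes were highest in the same library. Slc4a1, the anion exchanger of the red cell membrane, had 30.8, 3.21 and 6.25 CPM in day-6 libraries 1 to 3, against 0.917, 1.76 and 1.79 CPM in day-1 libraries 1 to 3. Alas2, which starts haem synthesis in erythroid cells, had 41.4, 4.85 and 9.22 CPM on day 6 and 1.72, 5.72 and 2.99 CPM on day 1. Epb4.2, another red cell membrane protein, had 2.46, 0.658 and 0.695 CPM on day 6 and 0.153, 0.204 and 0.249 CPM on day 1. Day-6 library 1 was highest in all 3, and Alas2 overlapped between the days. The log2 fold change was positive for all 6 tested red cell genes, their median was 2.37, and 3 were higher at an unadjusted p under 0.05. The haemoglobin genes Hba-a1, Hba-a2, Hbb-b1 and Hbb-b2 had 0 counts in each library. They are near-identical copies whose counts are uncertain, the reason for the 0 counts was not tested, and blood was not measured with them. Only 3 of 14 matched lymphocyte genes were tested, and Cd79a, a subunit of the B cell receptor complex, had 2.23, 0.493 and 0.442 CPM on day 6 and 0.268, 0.368 and 0.332 CPM on day 1. The 8 tested genes of cartilage and bone had a median log2 fold change of 0.09. The bone genes Ibsp and Bglap, and Matn3, were under the count minimum, so that median does not include them. Ibsp had 21, 15 and 3 counts on day 6 and 7, 3 and 2 on day 1. Bglap had 0 counts in each day-6 library and 4, 1 and 1 on day 1. In bulk tissue, more cells of a type and more RNA per cell cannot be told apart.

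**Figure D2:**
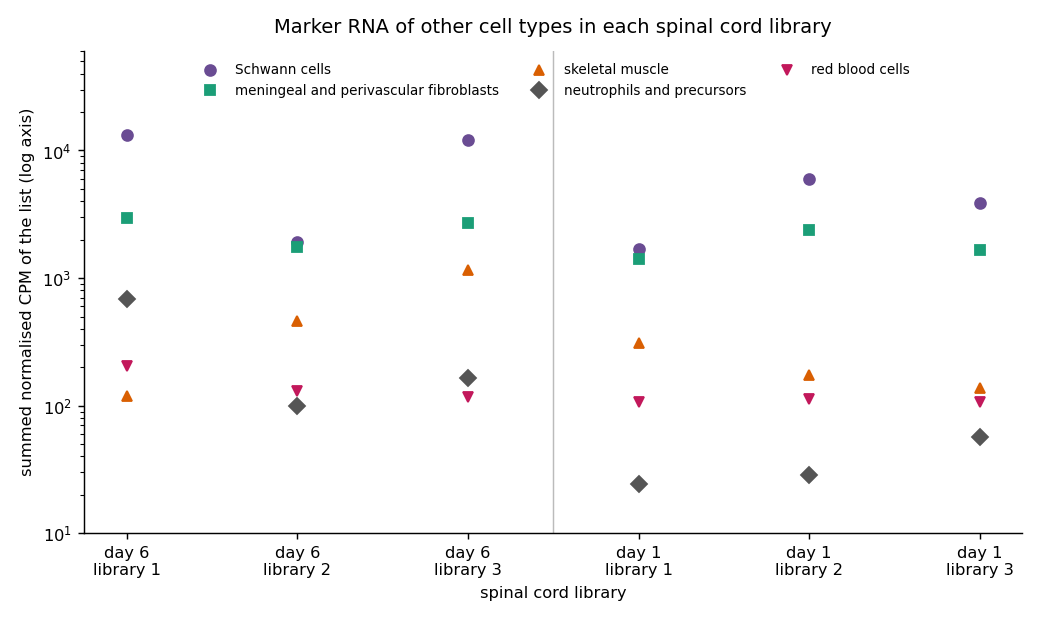
Summed normalised CPM of 5 marker lists in each spinal cord library, on a log axis, with day 6 on the left and day 1 on the right. Schwann cell RNA ranges from 1692 to 13300 CPM across the 6 libraries, and neutrophil RNA peaks at 682 CPM in day-6 library 1.

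Proliferation genes had the pattern of the neutrophil genes across libraries. Mki67, which marks dividing cells, had 9.79, 1.85 and 3.47 CPM in day-6 libraries 1 to 3, against 0.650, 0.327 and 0.873 CPM in day-1 libraries 1 to 3, a log2 fold change of 3.02 ± 0.72. Rrm2, a ribonucleotide reductase subunit, had 5.01, 2.88 and 3.98 CPM on day 6 and 2.14, 2.04 and 2.41 CPM on day 1. Kif20a, a mitotic kinesin, had 1.46, 0.987 and 1.01 CPM on day 6 and 0.497, 0.736 and 0.415 CPM on day 1. The day-6 libraries were above the day-1 libraries for all 3 genes, and day-6 library 1 was the highest. Of 27 tested cell cycle genes, 8 were higher and 0 lower at an unadjusted p under 0.05, with a median log2 fold change of 0.50. The neutrophil sums given above have the same order on day 6, and their part in the cell cycle values was not tested.

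Genes of the LTβR pathway itself differed by small log2 folds or overlapped between the days. Ltbr had 25.99, 21.8 and 27.7 CPM in day-6 libraries 1 to 3, against 18.2, 23.6 and 20.3 CPM in day-1 libraries 1 to 3, which overlapped between the days. Its log2 fold change was 0.28 ± 0.13 and its edgeR unadjusted p was 0.0579. Of the ligand genes, Ltb had 10 to 19 counts in each library, and Lta and Tnfsf14, which encodes LIGHT, were under the count minimum, with 4 to 7 and 0 to 14 counts. Traf3, the adaptor that holds NIK in check, had 84.8, 91.02 and 86.3 CPM in day-6 libraries 1 to 3, against 97.1, 92.99 and 102 CPM in day-1 libraries 1 to 3. Its groups did not overlap and its log2 fold change was -0.15 ± 0.06. Map3k14, which encodes NIK, had 6.83, 4.81 and 7.71 CPM on day 6 and 4.93, 7.15 and 4.49 CPM on day 1. Nfkb2, the p100 gene, had 9.56, 4.32 and 13.1 CPM on day 6 and 9.25, 12.9 and 10.4 CPM on day 1, and was lowest in day-6 library 2. Relb had 7.19, 6.21 and 6.82 CPM on day 6 and 6.88, 7.89 and 5.98 CPM on day 1. For these last 3 genes the days overlapped. Across the 10 tested genes of the ligands, receptor and non-canonical branch the median log2 fold change was -0.03, with 0 higher and 1 lower at an unadjusted p under 0.05.

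Cx3cl1, Vcam1 and Icam1, from the list of LTβR target genes, had lower values on day 6. Cx3cl1, the neuronal chemokine fractalkine, had 346, 357 and 369 CPM in day-6 libraries 1 to 3, against 422, 413 and 437 CPM in day-1 libraries 1 to 3. Its log2 fold change was -0.25 ± 0.06, with an edgeR unadjusted p of 0.00269. Vcam1, a vascular adhesion molecule, had 33.3, 36.3 and 30.6 CPM in day-6 libraries 1 to 3, against 42.7, 48.2 and 38.2 CPM in day-1 libraries 1 to 3, a log2 fold change of -0.37 ± 0.10. For both, each day-6 library was below each day-1 library. Icam1, another adhesion molecule, had 5.24, 5.26 and 4.42 CPM in day-6 libraries 1 to 3, against 7.91, 8.70 and 5.90 CPM in day-1 libraries 1 to 3, also without overlap, and a log2 fold change of -0.59 ± 0.17. Csf1, the macrophage growth factor, had 60.4, 70.3 and 70.98 CPM on day 6 and 71.2, 69.2 and 63.7 CPM on day 1, with overlapping groups. Of the 7 tested target genes, 3 were lower and 0 higher at an unadjusted p under 0.05, and the median log2 fold change was -0.04. The other 9 of the 16 listed, among them Madcam1, Cxcl13, Ccl19 and Ccl21a, were under the count minimum, with at most 3 counts in any cord library for these 4.

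The same interval was sampled in the L3 to L5 DRG, where 3 libraries from each day came from mice with the same agonist scheme, and the difference between the tissues was tested. Of 15966 genes, 2 (0.0125%) had a cord change that differed from the DRG change. Both were in the list of LTβR target genes, which was written with earlier results of these data known. In this fit, Cx3cl1 had 16.3, 14.1 and 13.2 CPM in day-6 DRG, against 34.5, 36.1 and 34.5 CPM in day-1 DRG. Its log2 fold change was -0.27 in cord and -1.27 in DRG, a difference of 1.00 ± 0.10 (edgeR's quasi-likelihood test, Benjamini-Hochberg adjusted p = 0.00248). Vcam1 had 13.8, 13.4 and 14.8 CPM in day-6 DRG, against 57.0, 69.5 and 49.6 CPM in day-1 DRG. Its log2 fold change was -0.38 in cord and -2.07 in DRG, a difference of 1.68 ± 0.17 with the same edgeR adjusted p of 0.00248. Both genes thus had lower values on day 6 in both tissues, by a smaller log2 fold in cord. The labels do not say whether cord and DRG came from the same mice, and the fit took the libraries as independent. With the replicate number as a block within each tissue, neither gene passed (edgeR adjusted p = 0.142 for Cx3cl1 and 0.0832 for Vcam1). The sizes of the difference were nearly the same in that fit, at 1.01 for Cx3cl1 and 1.67 for Vcam1. That block linked same-numbered libraries of day 6 and day 1, and not cord with DRG. Sharing of mice between the tissues was therefore not tested. Icam1 had a difference of 0.92 ± 0.27 that did not pass (edgeR adjusted p = 0.499), and neither did Csf1, at 0.70 ± 0.13 (edgeR adjusted p = 0.292). At an unadjusted p under 0.05 there were 1496 genes.

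**Figure D3:**
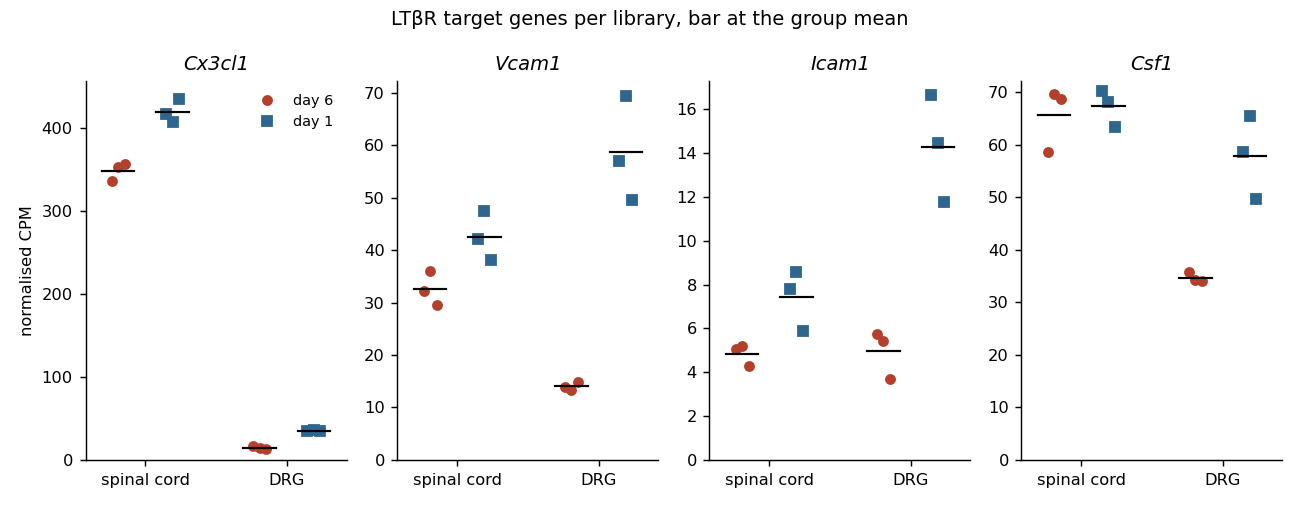
Normalised CPM of 4 LTβR target genes in each library, on a linear axis from 0, for spinal cord and DRG, with day 6 left of day 1 in each tissue and a bar at the group mean. Vcam1 sits between 13.4 and 14.8 CPM in day-6 DRG and between 49.6 and 69.5 CPM in day-1 DRG, whereas the cord groups lie closer together.

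Most genes of cholesterol synthesis had higher values on day 6. Oligodendrocytes make cholesterol for myelin and astrocytes supply it to neurons, and the SREBP2 factor controls the pathway genes together. Sc4mol, a methylsterol oxidase, had 200.2, 201 and 194 CPM in day-6 libraries 1 to 3, against 164, 159 and 164 CPM in day-1 libraries 1 to 3. Sc5d, a late desaturase, had 88.8, 84.97 and 78.8 CPM in day-6 libraries 1 to 3, against 67.7, 65.1 and 69.2 CPM in day-1 libraries 1 to 3. Mvd, of the mevalonate part, had 48.5, 48.8 and 44.4 CPM on day 6 and 38.7, 35.3 and 39.9 CPM on day 1. In each of the 3 genes all day-6 libraries were above all day-1 libraries, and the log2 fold changes were 0.29 ± 0.05, 0.32 ± 0.06 and 0.32 ± 0.07. Of 21 tested genes, 12 were higher and 0 lower at an unadjusted p under 0.05, 20 had a positive log2 fold change and 14 had groups that did not overlap. The median of the list was 0.22, and it lay between 0.19 and 0.24 under each of 19 alternative settings.

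Of the oligodendrocyte genes, 3 of 17 were higher on day 6 at an unadjusted p under 0.05 and 0 lower. Ugt8a, which makes the myelin lipid galactosylceramide, had 392, 273 and 304 CPM in day-6 libraries 1 to 3, against 217, 236 and 228 CPM in day-1 libraries 1 to 3. Aspa, an oligodendrocyte deacetylase, had 78.5, 87.98 and 81.5 CPM on day 6 and 73.6, 67.2 and 64.8 CPM on day 1, and Opalin had 63.9, 62.4 and 50.8 CPM on day 6 and 47.1, 38.4 and 48.9 CPM on day 1. The groups did not overlap for Ugt8a, Aspa and Opalin. Schwann cells also express cholesterol and myelin lipid genes. Their sums are given above, and with the Schwann cell score as a covariate the median of the cholesterol list was 0.23.

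The unfolded protein response, which raises endoplasmic reticulum chaperones when proteins misfold, had lower values on day 6. Calr, a calcium-binding chaperone, had 355, 377 and 358 CPM in day-6 libraries 1 to 3, against 425, 411 and 426 CPM in day-1 libraries 1 to 3. Hspa5, the chaperone BiP, had 272, 315 and 313 CPM in day-6 libraries 1 to 3, against 359, 369.9 and 354 CPM in day-1 libraries 1 to 3. Sdf2l1, a partner of BiP, had 6.19, 8.68 and 9.35 CPM in day-6 libraries 1 to 3, against 11.4, 11.8 and 13.8 CPM in day-1 libraries 1 to 3. All day-6 libraries were below all day-1 libraries for these 3 genes, whose log2 fold changes were -0.21 ± 0.06, -0.27 ± 0.07 and -0.62 ± 0.17. Of 17 tested genes, 7 were lower and 0 higher at an unadjusted p under 0.05, and 16 had a negative log2 fold change, with a median of -0.16.

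The promoters of these genes were read from RefSeq for the 250 bases before the annotated start (build GRCm38.p6), because chaperone genes are known to share an element bound by ATF6 and XBP1. That element was searched on both strands as CCAAT and CCACG separated by 9 bases. It was in 6 of the 16 members with an entry (37.5%), among them Calr and Hspa5, and in 0.122% of the 27025 promoters in the table. CCAAT alone, which each such element contains, was in 13 of the 16 (81.2%) and in 34.5% of all promoters. For cholesterol synthesis, CCAAT was in 13 of 14 promoters with an entry (92.9%), and the sterol element TCACNCCAC was in 0 of 14, against 1.04% of all promoters. A κB motif, written GGGNNNNTCC, was in the promoters of Icam1 and Csf1 among 5 LTβR target genes with an entry, and in 16.3% of all promoters. These matches describe letters in the window and not binding. The upstream sequences of Calr (chr8:84846932-84847181, minus strand), Hspa5 (chr2:34771840-34772089, plus strand) and Sdf2l1 (chr16:17132384-17132633, minus strand) are shown because these 3 had the smallest p of the list, and that of Sc4mol (RefSeq Msmo1, chr8:64733579-64733828, minus strand) because it had the smallest p of the cholesterol list. Capitals mark the CCAAT boxes and, in Calr and Hspa5, the whole element, on either strand. Sdf2l1 had CCAAT boxes but no match to the whole element.
Calr: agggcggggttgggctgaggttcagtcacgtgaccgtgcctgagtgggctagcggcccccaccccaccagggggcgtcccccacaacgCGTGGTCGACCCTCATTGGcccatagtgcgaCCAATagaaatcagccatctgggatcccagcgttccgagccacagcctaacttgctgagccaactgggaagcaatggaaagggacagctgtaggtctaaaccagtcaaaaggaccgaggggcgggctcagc
Hspa5: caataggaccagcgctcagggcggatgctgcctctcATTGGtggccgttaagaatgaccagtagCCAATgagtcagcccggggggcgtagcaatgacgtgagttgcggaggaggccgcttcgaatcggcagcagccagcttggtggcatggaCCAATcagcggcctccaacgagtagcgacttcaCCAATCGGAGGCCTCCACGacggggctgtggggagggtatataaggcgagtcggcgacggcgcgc
Sdf2l1: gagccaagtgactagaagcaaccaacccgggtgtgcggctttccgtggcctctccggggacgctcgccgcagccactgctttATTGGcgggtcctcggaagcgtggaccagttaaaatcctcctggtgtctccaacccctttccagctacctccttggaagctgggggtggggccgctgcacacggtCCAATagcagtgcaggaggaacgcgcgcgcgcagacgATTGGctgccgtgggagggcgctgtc
Sc4mol: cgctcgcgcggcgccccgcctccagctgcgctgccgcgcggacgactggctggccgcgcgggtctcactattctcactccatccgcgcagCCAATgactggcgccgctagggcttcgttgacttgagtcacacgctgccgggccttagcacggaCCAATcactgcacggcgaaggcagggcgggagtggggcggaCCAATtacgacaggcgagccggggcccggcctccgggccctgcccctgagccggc

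Glucocorticoid-responsive genes, which follow stress hormone through the glucocorticoid receptor, also had lower values on day 6. Fkbp5, a chaperone of that receptor, had 28.9, 41.8 and 38.3 CPM in day-6 libraries 1 to 3, against 49.5, 55.2 and 51.8 CPM in day-1 libraries 1 to 3, a log2 fold change of -0.52 ± 0.13. Hif3a had 6.74, 11.97 and 15.8 CPM in day-6 libraries 1 to 3, against 24, 26.4 and 26.4 CPM in day-1 libraries 1 to 3, a log2 fold change of -1.16 ± 0.28. Errfi1, an inhibitor of the EGF receptor, had 103, 116 and 142 CPM in day-6 libraries 1 to 3, against 155, 165 and 164 CPM in day-1 libraries 1 to 3, a log2 fold change of -0.42 ± 0.11. All day-6 libraries were below all day-1 libraries for the 3 genes. Day-6 library 1 was the lowest. Of 18 tested genes, 6 were lower and 0 higher at an unadjusted p under 0.05, 9 were lower without overlap, and the median log2 fold change was -0.46. With the neutrophil score as a covariate, a choice made after seeing the data, that median was -0.11, and with the red blood cell score it was -0.12. Both scores were higher in each day-6 library than in each day-1 library, so these fits cannot tell score and day apart. The median stayed negative under each of the 19 alternatives. The mean centred log2 CPM of the list was -0.63, -0.38 and 0.25 in day-6 libraries 1 to 3, against 0.11, 0.45 and 0.20 in day-1 libraries 1 to 3, so that day-6 library 3 lay within the day-1 range. The labels give neither the hour of collection nor the handling of the mice. Clock genes had a median of -0.12 over 19 tested genes, with 1 higher and 2 lower at an unadjusted p under 0.05. Nr1d1, a clock repressor, had 160.5, 161 and 178 CPM in day-6 libraries 1 to 3, against 124, 135 and 135 CPM in day-1 libraries 1 to 3. Usp2 had 29.4, 32.3 and 36.7 CPM on day 6 and 42.04, 42.5 and 44.8 CPM on day 1 and Cry1 had 17.5, 19 and 20.8 CPM on day 6 and 23.6, 27.7 and 23.5 CPM on day 1. The groups did not overlap for Nr1d1, Usp2 and Cry1.

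**Figure D4:**
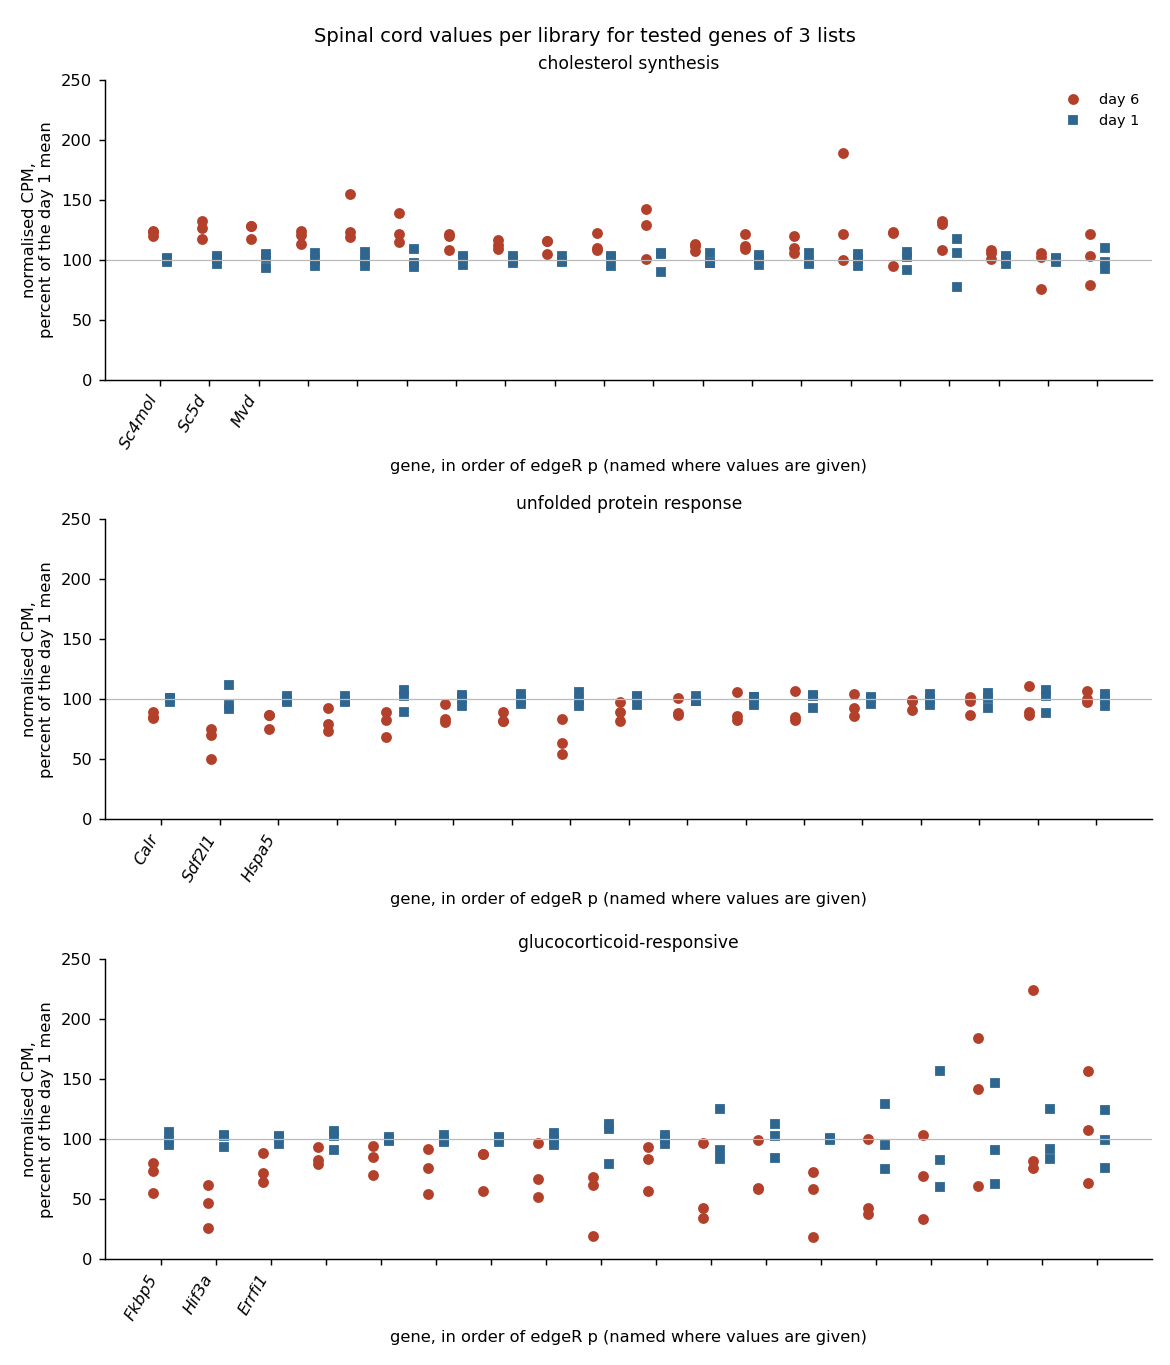
Normalised CPM of tested genes of 3 lists in each spinal cord library, as a percent of the day-1 mean of that gene, with day-6 circles left of day-1 squares. Genes stand in order of edgeR p, those named in the text are labelled, and 1 gene is left out of the cholesterol panel. Most cholesterol genes lie above 100 percent on day 6 and most genes of the other lists below it, with a wider spread between day-6 libraries among the glucocorticoid-responsive genes.

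Endothelial genes lay on both sides, more of them higher on day 6. Tek, the angiopoietin receptor of endothelium, had 22.3, 22.1 and 20.3 CPM in day-6 libraries 1 to 3, against 13.6, 14.7 and 15.1 CPM in day-1 libraries 1 to 3, a log2 fold change of 0.58 ± 0.08 and an edgeR unadjusted p of 0.000145. Kdr, a VEGF receptor, had 20.4, 14.8 and 16.2 CPM in day-6 libraries 1 to 3, against 10.7, 12.4 and 11.1 CPM in day-1 libraries 1 to 3, a log2 fold change of 0.58 ± 0.14. Ocln, a tight junction protein, had 15.4, 14.8 and 14.5 CPM on day 6 and 11.7, 11.6 and 11.3 CPM on day 1, and Abcb1a, the efflux pump of the blood-brain barrier, had 45.8, 43.5 and 40.4 CPM on day 6 and 34.7, 36.2 and 34.3 CPM on day 1. Each of these 4 had all day-6 libraries above all day-1 libraries. The tight junction gene Cldn5 had 73.6, 55.2 and 49.8 CPM on day 6 and 39.2, 48.4 and 45.9 CPM on day 1, also without overlap. Of 15 tested endothelial genes, 6 were higher and 1, Ly6c1, was lower at an unadjusted p under 0.05, with a median log2 fold change of 0.26. Ly6c1, a surface protein of vessels and monocytes, had 27.9, 37.3 and 30.7 CPM on day 6 and 38.1, 37.5 and 47.2 CPM on day 1. With the red blood cell score as a covariate the endothelial median was 0.0287. That score was higher in each day-6 library than in each day-1 library, so this fit cannot tell score and day apart. Car4, a carbonic anhydrase on capillaries, had 26.3, 26.03 and 25.6 CPM on day 6 and 19.3, 15.5 and 19.2 CPM on day 1, and Ly6a, which marks vessels as well as stem cells, had 25.2, 31.2 and 31.96 CPM on day 6 and 41.5, 40.5 and 48.4 CPM on day 1. These lay on opposite sides, Car4 above day 1 and Ly6a below it.

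The genes of smallest p in each direction, none past the threshold, were as follows. On the higher side, Fabp7, a fatty acid-binding protein of astrocytes and their precursors, led with 47.98, 45.9 and 50.7 CPM in day-6 libraries 1 to 3, against 30.8, 34.3 and 34.9 CPM in day-1 libraries 1 to 3, a log2 fold change of 0.53 ± 0.08 and an edgeR unadjusted p of 0.000116. The extracellular protease gene Adamts1 had 25.7, 25.3 and 24.7 CPM on day 6 and 18.5, 18.1 and 16.4 CPM on day 1. Ddit4l, an inhibitor of mTOR signalling, had 30.2, 26.7 and 26.6 CPM on day 6 and 20.3, 17.8 and 16 CPM on day 1. Each had groups well apart. Fbxo32, a ubiquitin ligase known from muscle wasting, had 40.7, 42.8 and 52.5 CPM on day 6 and 31.98, 28.9 and 27.4 CPM on day 1. Skeletal muscle RNA was highest in day-6 library 3, as Fbxo32 was, but lowest of the 6 in day-6 library 1, at 118 CPM. Its part in the Fbxo32 values was not tested. Itgb3, an integrin subunit, had 7.15, 7.03 and 6.38 CPM on day 6 and 4.47, 3.84 and 3.91 CPM on day 1, and Pde8a, a phosphodiesterase, had 40.2, 40.9 and 34.8 CPM on day 6 and 30.3, 26.6 and 26.7 CPM on day 1. The chemokine receptor Cxcr4 had 14.9, 7.90 and 9.79 CPM on day 6 and 4.43, 4.62 and 4.70 CPM on day 1, a log2 fold change of 1.24 ± 0.23, with day-6 library 1 highest as for the neutrophil genes.

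On the lower side, Il2rg, the shared subunit of several interleukin receptors, had 4.14, 2.88 and 2.27 CPM in day-6 libraries 1 to 3, against 6.15, 7.72 and 6.94 CPM in day-1 libraries 1 to 3, a log2 fold change of -1.15 ± 0.22. Kirrel2, an adhesion protein, had 5.69, 9.62 and 6.76 CPM on day 6 and 14.02, 13.4 and 14.1 CPM on day 1, a log2 fold change of -0.91 ± 0.18. For both, no day-6 library reached the day-1 range. The glycolytic enzyme gene Pfkl had 122, 118 and 127 CPM on day 6 and 145, 148 and 156 CPM on day 1, the repressor gene Zbtb7a had 143, 153 and 156 CPM on day 6 and 180.5, 183 and 189.6 CPM on day 1, and Tbkbp1, a partner of the kinase TBK1, had 105, 106 and 106 CPM on day 6 and 130.2, 122 and 136 CPM on day 1. Their log2 fold changes were -0.29 ± 0.06, -0.29 ± 0.06 and -0.29 ± 0.06. Fam163b, Ttyh3 and Tmem121 completed the 10, at -0.28 ± 0.06, -0.31 ± 0.07 and -0.58 ± 0.13, and Pax2 is given with the interneurons.

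Most listed interneuron genes had slightly lower values on day 6. Pax2, a factor of inhibitory dorsal horn neurons, had 42.1, 40.5 and 40.6 CPM in day-6 libraries 1 to 3, against 50.4, 50.7 and 49.1 CPM in day-1 libraries 1 to 3, a log2 fold change of -0.29 ± 0.06. Slc32a1, the vesicular transporter of GABA and glycine, had 234, 269.5 and 244 CPM in day-6 libraries 1 to 3, against 294, 267 and 304 CPM in day-1 libraries 1 to 3, a log2 fold change of -0.21 ± 0.08. Pax2 did not overlap between the days, whereas Slc32a1 did. The neuropeptide gene Gal had 2.41, 1.77 and 2.97 CPM on day 6 and 3.48, 3.39 and 3.74 CPM on day 1. Of 16 tested inhibitory genes, 5 were lower and 0 higher at an unadjusted p under 0.05, with a median log2 fold change of -0.15. Among 16 excitatory genes, 2 were lower, the peptide gene Cck with 18.3, 15.4 and 19.1 CPM on day 6 and 23.6, 22.6 and 25.97 CPM on day 1 and Tacr1, the substance P receptor, with 18.1, 15.3 and 17.1 CPM on day 6 and 19.9, 20.3 and 18.9 CPM on day 1, and the median was -0.18. These medians stayed negative under each of the 19 alternatives. The mean centred log2 CPM of the inhibitory list was -0.047, -0.204 and 0.092 on day 6 and 0.065, 0.088 and 0.007 on day 1. Day-6 library 3 was the highest of the 6. The excitatory list had -0.007, -0.334 and 0.036 on day 6 and 0.095, 0.187 and 0.023 on day 1. There day-6 library 3 lay within the day-1 range. The summed CPM of the inhibitory list was nonetheless lower in each day-6 library than in each day-1 library. The 12 pan-neuronal genes had a median of -0.12, with Rbfox3, a nuclear marker of neurons, at 250.5, 269.5 and 264 CPM on day 6 and 298, 285 and 294 CPM on day 1. The neuronal sum was 12760, 17840 and 12360 on day 6 and 15830, 13870 and 16020 on day 1, in CPM, and was highest in day-6 library 2, the library low in root and meningeal RNA. Its part in the interneuron values was not tested. Chat, of motor neurons, had 24.4, 39.9 and 22.8 CPM on day 6 and 35.5, 32.9 and 37.1 CPM on day 1, with day-6 library 2 the highest of the 6. The 15 motor neuron genes had a median of 0.03 and 0 at an unadjusted p under 0.05. The NMDA receptor genes Grin1 and Grin2d were at -0.20 ± 0.06 and -0.20 ± 0.08 on the log2 scale, and the 7 opioid genes had a median of -0.15, with 0 at an unadjusted p under 0.05.

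Microglia and astrocytes, the cells most often studied in the cord after injury of the paw or nerve, had genes on both sides of day 1. Of 20 genes of activated microglia, 4 were higher and 1 lower at an unadjusted p under 0.05, with a median log2 fold change of 0.19. Of 15 genes of microglial pain signalling, which include Fkbp5, 1 was higher and 3 lower, with a median of 0.11. With the Schwann cell score as a covariate the activated and pain medians were 0.01 and 0.04, and with the neutrophil score -0.04 and -0.15. The neutrophil score was higher in each day-6 library than in each day-1 library, so that fit cannot tell score and day apart. The part of other cell types in these counts was not tested. Of 19 homeostatic microglial genes 1 was higher and 1 lower at an unadjusted p under 0.05, with a median of -0.04. These homeostatic counts were near the shares over all tested genes, 5.39% higher and 4.31% lower. P2ry12, a purine receptor of resting microglia, had 28.2, 29.2 and 23.8 CPM on day 6 and 28.1, 23.98 and 22.1 CPM on day 1, and Cx3cr1, the receptor of Cx3cl1, had 45.7, 33.4 and 36.5 CPM on day 6 and 37.1, 37.2 and 34.4 CPM on day 1. Both overlapped between the days. Tmem119, a microglial membrane protein, had 14.2, 17.03 and 17.9 CPM in day-6 libraries 1 to 3, against 20.1, 20.5 and 21.1 CPM in day-1 libraries 1 to 3, without overlap. The transcription factor Sall1 had 48.3, 48.7 and 51.5 CPM on day 6 and 42.1, 45.4 and 40.01 CPM on day 1, also without overlap but on the higher side. Lgals3, a galectin of activated phagocytes, had 8.24, 2.84 and 6.57 CPM on day 6 and 2.06, 2.94 and 2.54 CPM on day 1, with high values in the same day-6 libraries as the root and meningeal genes. Gfap, the intermediate filament of astrocytes, had 988, 1404 and 1151 CPM in day-6 libraries 1 to 3, against 1269, 1270 and 1225 CPM in day-1 libraries 1 to 3, and Aqp4, their water channel, had 453, 501 and 434 CPM on day 6 and 461, 436 and 438 CPM on day 1. The groups overlapped for both. Of 24 genes of reactive astrocytes, 3 were higher and 0 lower at an unadjusted p under 0.05, with a median of 0.43. With the Schwann cell score as a covariate the median of this list was 0.12. Cd44, an adhesion receptor, had 18.3, 19.1 and 16.2 CPM on day 6 and 13.5, 14.4 and 13.3 CPM on day 1. Timp1, a protease inhibitor, had 0.455, 0.535 and 0.884 CPM on day 6 and 0.306, 0.286 and 0.125 CPM on day 1, so it was near the floor in each library. Of 9 ependymal genes, which belong to the ciliated lining of the central canal, 4 were higher, among them Ccdc153 with 17.2, 17.2 and 25.01 CPM on day 6 and 13.03, 14.6 and 10.9 CPM on day 1.

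All tested interferon targets and collagen genes had positive log2 fold changes, but few reached an unadjusted p under 0.05. Over all tested genes, 5.39% were higher and 4.31% lower at that p. The 25 tested targets of type I interferon had a median of 0.56, and 1 of them was higher, Ifi27l2a with 3.23, 2.88 and 3.85 CPM on day 6 and 1.22, 1.10 and 2.04 CPM on day 1. The 13 targets of interferon-gamma had a median of 0.67 and 4 were higher. Iigp1, an immunity-related GTPase, had 10.9, 2.88 and 13.2 CPM in day-6 libraries 1 to 3, against 2.83, 3.47 and 3.66 CPM in day-1 libraries 1 to 3, and Gbp4, a guanylate-binding protein, had 6.37, 4.24 and 8.08 CPM on day 6 and 3.40, 4.37 and 3.91 CPM on day 1. For both, day-6 libraries 1 and 3 were high and day-6 library 2 lay among the day-1 libraries. The 23 collagen and basement membrane genes had a median of 0.59, with 0 at an unadjusted p under 0.05, and Col1a1 had 232, 56.4 and 182 CPM on day 6 and 56.5, 122 and 81.9 CPM on day 1. Cd74, the invariant chain of MHC class II, had 91.3, 14.7 and 62.4 CPM on day 6 and 18.1, 59.9 and 26.3 CPM on day 1. The interferon and collagen genes were highest in the day-6 libraries that also had the highest meningeal and Schwann cell sums. With the Schwann cell score as a covariate, the medians were 0.17 for type I interferon and 0.20 for interferon-gamma targets. For collagen and basement membrane genes the median in that fit was 0.12. The covariate was added after seeing the data, and the cause of these values was not tested. Of 37 Hox genes, which encode position along the body axis, 1 was higher and 5 lower at an unadjusted p under 0.05. Log2 fold changes were -0.43 ± 0.11 for Hoxc12, -0.32 ± 0.09 for Hoxc13 and -0.30 ± 0.09 for Hoxb5, against a list median of -0.10.

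**Figure D5:**
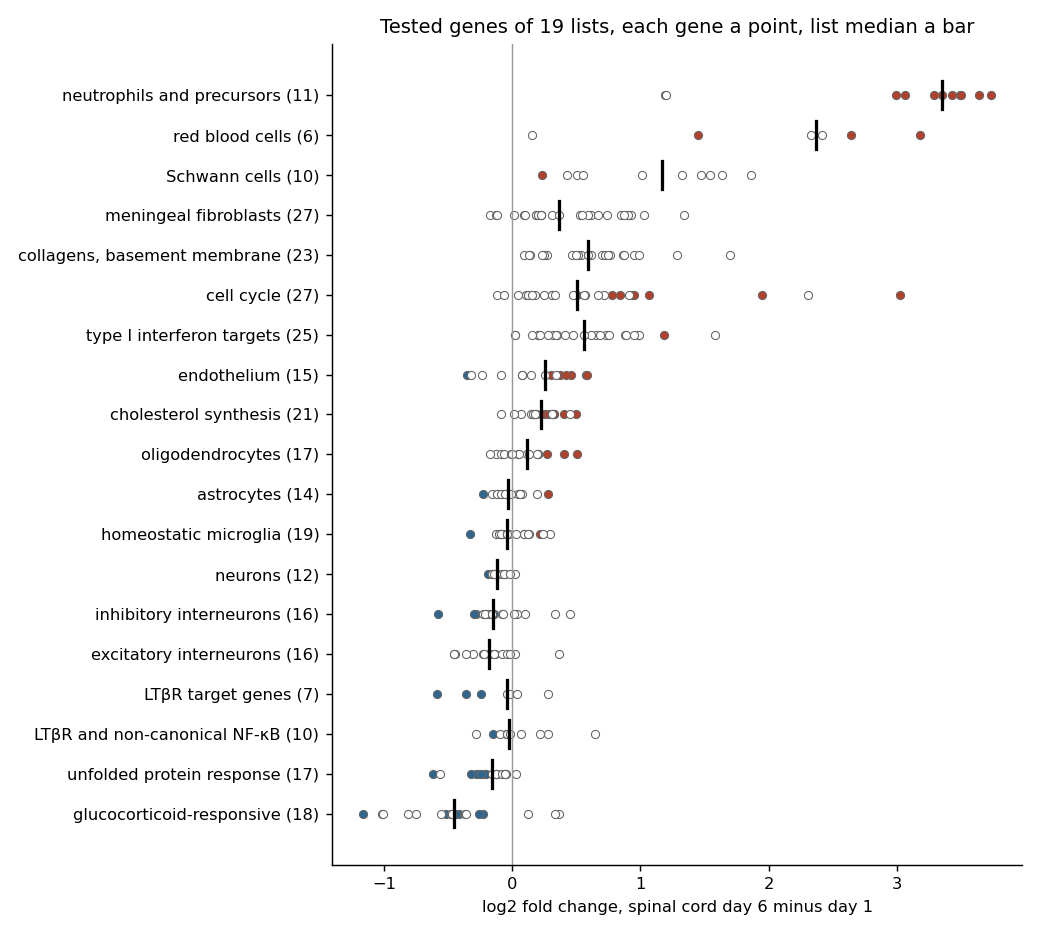
Log2 fold change of spinal cord day 6 minus day 1 for the tested genes of 19 lists, with the number of genes in brackets, a point for each gene, filled where the edgeR unadjusted p was under 0.05, and a bar at the list median. The neutrophil median lies at 3.36 and the glucocorticoid-responsive median at -0.46.

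The number of genes called depended on day-6 library 2. Without it, edgeR called 493 of 15273 genes higher on day 6 (3.23%) and 325 lower (2.13%). The remaining day-6 libraries had Schwann cell sums of 13300 and 12100 CPM, against 1692 to 5959 CPM on day 1, so that composition and day differed together in that comparison and cannot be told apart. In that fit 6 of 21 cholesterol genes were called higher, 7 of 13 interferon-gamma targets higher, 3 of 17 genes of the unfolded protein response lower and 6 of 15 motor neuron genes lower. Leaving out any other single library gave 0 called genes with edgeR. DESeq2 on all 6 libraries called 47 of 14799 genes higher (0.318%) and 18 lower (0.122%), of which 48 were also called by edgeR without day-6 library 2. With the Schwann cell score of each library as a covariate, a choice made after seeing the data, edgeR called 15 genes higher and 8 lower. These included Tek, Fabp7, Adamts1 and Sc4mol on the higher side and Il2rg, Kirrel2 and Pfkl on the lower side, and 14 of the 23 were also called by DESeq2.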

How the data were processed

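Polyadenylated RNA of the lumbar spinal cord was sequenced as 50 bp single reads from a stranded kit, per the labels' protocols. The authors deposited a table of raw counts for each library, of 22609 gene symbols and 5 HTSeq summary lines that were left out here. The submitters' processing notes name bcl2fastq, TopHat2, HTSeq and the mm9 build; versions, annotation and strand setting are not given in the sources used here, so overlapping and antisense genes may share reads. There were 0 columns of other samples.

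Groups of 3 libraries followed the labels, and of 6 pairs of replicates 0 were identical. In R 4.3.3, counts were filtered with filterByExpr, scaled by TMM and tested by edgeR 4.0.16 (glmQLFit with robust estimation, limma 3.58.1), 2-sided, adjusting p by Benjamini-Hochberg over all tested genes at a threshold of 0.05. To set cord against DRG, the interaction of tissue and day was tested over 12 libraries. Errors of log2 fold changes are SE. Depth was 15.7 to 26.3 in units of 1e6 counted reads per cord library. Scores are means of log2 CPM over a list with a prior count of 2, centred on the 6 cord libraries.

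The comparison and the 52 gene lists were chosen with earlier results of these data known. They held 870 symbols, of which 853 were found directly and 3 under an older name, and 14 had no match. With fewer than 5 genes past the threshold in a direction, the naming rule took the 10 of smallest p in each direction whose mean log2 CPM was 0 or more, without provisional gene models. Also named were the 3 members of smallest p of each list, up to 6 for the meningeal, red blood cell, microglial and LTβR lists, the LTβR genes and defining markers whatever their p, and genes past the threshold for the difference from DRG. Not every gene allowed is given, and Kdr, Cldn5, Ly6c1, S100a9, Cd74 and Prg2, outside the rule, were named after their values were seen.

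Tested on simulated data for this comparison with 15007 genes, edgeR recovered 82 of 100 genes changed 2-fold and 95 of 100 changed 4-fold, with 8 false calls among 185; genes were drawn independently, so shared composition was absent. The settings varied were normalization by RLE or upper quartile, no filter, a filter of 1 CPM in 3 libraries, DESeq2 1.42.0, limma voom, non-robust dispersions, the replicate number as a block, all 24 libraries in 1 fit, meningeal and red blood cell scores as covariates, and each library left out. Neutrophil and Schwann cell scores as covariates were added after seeing the data. Promoters came from a RefSeq table matched by symbol or synonym.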

Additional observations from a re-analysis of the deposited data

Results flagged for a closer look

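For Cx3cl1 and Vcam1 the change of day 6 over day 1 differed between spinal cord and DRG by the test of the difference itself. The log2 fold change in cord minus that in DRG was 1.00 ± 0.10 for Cx3cl1 and 1.68 ± 0.17 for Vcam1 (SE; Benjamini-Hochberg adjusted p = 0.00248 for both by edgeR). In cord all 3 day-6 libraries were below all 3 day-1 libraries for each gene, and the same held in DRG. The difference passed in each of 12 fits that left out 1 library, and did not pass for either gene with the replicate number as a block (edgeR adjusted p = 0.142 for Cx3cl1 and 0.0832 for Vcam1). With that block its size was 1.01 for Cx3cl1 and 1.67 for Vcam1.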

How the results depend on the processing

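The count of genes called between day 6 and day 1 was 0 with edgeR, under every setting of normalization, filter, dispersion, voom, the fit of 24 libraries and the meningeal, red blood cell and neutrophil covariates, and 1464 genes had an unadjusted p under 0.05. It was 65 with DESeq2, 23 with the Schwann cell score as a covariate, and 0 to 818 when 1 library was left out, the highest without day-6 library 2. For the difference from DRG the count was 2, with 43 for DESeq2 and 2 to 214 when 1 library was left out, the highest again without day-6 library 2 of cord. The deviations of same-numbered cord libraries from their group means correlated at -0.427, -0.600 and -0.180, and those of differently numbered libraries at -0.250 to 0.536. Deviations within a group of 3 libraries are tied to each other, so these values cannot show whether same-numbered libraries were paired. With the replicate block 0 genes were called in cord and 0 for the difference from DRG, where Cx3cl1 and Vcam1 had edgeR adjusted p of 0.142 and 0.0832, in place of 0.00248 for both. Their differences were 1.01 and 1.67 with the block, against 1.00 and 1.68 without it. The causes were not tested.

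Of 91 named genes, 72 kept the sign of the log2 fold change in all 19 alternatives, as did 1678 of 1723 values. The neutrophil and red blood cell scores were higher in each day-6 library than in each day-1 library. Fits with these scores cannot tell score and day apart. Cxcr2 is in the neutrophil list and Alas2 in the red blood cell list, so each was also fitted against a score that holds it. The following signs turned. With the neutrophil score as a covariate the log2 fold changes were -0.20 for Ltb, 0.24 for Csf1, -0.18 for Cxcr2, -0.48 for Slc4a1, -0.91 for Alas2, -0.79 for Cd79a, -0.67 for Dcn, -0.69 for Col1a1, -1.71 for Pmp2, -0.040 for Cldn5, -0.26 for Cx3cr1, 0.31 for Gfap, 0.17 for Snap25, 0.15 for Chat, -1.24 for Cd74 and 0.064 for Hoxc10. With the red blood cell score they were 0.16 for Csf1, -0.23 for Alas2, -0.32 for Cd79a, -0.24 for Dcn, -0.22 for Col1a1, -0.50 for Pmp2, -0.19 for Cx3cr1, 0.18 for Gfap, 0.11 for Snap25, 0.017 for Chat, -0.74 for Cd74 and 0.031 for Hoxc10. With the meningeal score they were 0.0048 for Csf1, 0.036 for Snap25 and -0.16 for Cd74. With the Schwann cell score they were 0.0098 for Csf1, 0.034 for Snap25 and -0.18 for Cd74, and with voom 0.029 for Relb. Leaving out 1 library gave -0.65 to 0.049 for Nfkb2, -0.13 to 0.065 for Relb, -0.061 to 0.054 for Csf1, -0.054 to 0.18 for Cx3cr1, -0.24 to 0.025 for Gfap, -0.011 to 0.10 for Aqp4 and -0.20 to 0.022 for Snap25. Depth was as low as 15.7 in units of 1e6 reads, and its part in the count of called genes was not tested.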
